A study of Mus musculus with 34 samples.

Results

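The genes described here are 10 mouse transcription factors, and factors that act with them on chromatin, which are known from work on the start of transcription in the early embryo: Duxf3, Dppa2, Dppa4, Nr5a2, Nfya, Rarg, Gabpa, Klf17, Klf5 and Zfp352. They were chosen by name, with earlier results of these data known. All 10 were found among the 49686 gene symbols measured in zygotes and late 2-cell embryos and the 51734 measured in blastocysts. Single embryos were sequenced after injection of early zygotes with mRNA for wild-type (WT) CHK1 or for the mutant CHK1 R442Q; both groups thus carried injected CHK1 mRNA, and no uninjected embryo was analysed here. There were 5 WT and 6 R442Q zygotes and 4 WT and 5 R442Q late 2-cell embryos, all with no drug per the labels, and 7 WT and 7 R442Q blastocysts, all grown with a Chk1 inhibitor at 30 nM. CHK1 acts in the checkpoint that answers DNA damage, and the study's title poses the question of what its disturbance does to preimplantation transcriptomes. Strain, age of the mothers and litters are not given in the sources used here, so p-values measure the spread between these single embryos.

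A mammalian egg is filled with maternal RNA and protein, and the embryo's own genome is silent at first. In the mouse a minor wave of transcription begins in the zygote and a major wave in the 2-cell embryo, while maternal RNA is destroyed. DUX, the protein of Duxf3, is a homeodomain factor of the minor wave that binds genes and repeats typical of the 2-cell embryo. DPPA2 and DPPA4 are SAP-domain proteins that act together on chromatin and are known to help Dux and its targets to be transcribed. NFYA is the DNA-binding subunit of NF-Y, which reads CCAAT boxes. NR5A2 and RARG are nuclear receptors, GABPA is an ETS factor, KLF17 and KLF5 are zinc finger factors of the Krüppel-like family, and Zfp352 encodes a zinc finger protein whose RNA is typical of the 2-cell embryo.

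Promoters are shown for the genes on which the results below turn: Zfp352 and Rarg, the members called by edgeR between the genotypes in zygotes (both tested only with R442Q zygotes counted, as given below, and Rarg on few reads), and Duxf3 and Klf17, 2 of the 3 members that fell by the late 2-cell stage; the windows of Nfya, which also fell, are not shown. Each is the 250 bases before a RefSeq transcription start (GRCm38.p6), 5′ to 3′ on the gene's strand; RefSeq gave such a window for 7 of the 10 genes. Capitals mark matches on either strand to any of 7 motifs that were searched: CCAAT (NF-Y), CCGGAAGT (GABPA), TCAAGGNCA (NR5A2), CCACNCCC (Krüppel-like factors), an 11-base DUX motif, AGGTCA (a single unit of the repeats that retinoid receptors bind) and TAATCC (paired-like homeodomain). The last was added after the Zfp352 sequence had been seen.
Zfp352, chr4:90218570-90218819, plus strand: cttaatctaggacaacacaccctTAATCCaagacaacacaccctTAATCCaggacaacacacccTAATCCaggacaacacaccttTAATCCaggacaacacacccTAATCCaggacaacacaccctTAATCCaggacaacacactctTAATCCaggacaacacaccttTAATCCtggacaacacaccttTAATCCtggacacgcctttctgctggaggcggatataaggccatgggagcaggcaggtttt
Rarg, chr15:102257523-102257772, minus strand: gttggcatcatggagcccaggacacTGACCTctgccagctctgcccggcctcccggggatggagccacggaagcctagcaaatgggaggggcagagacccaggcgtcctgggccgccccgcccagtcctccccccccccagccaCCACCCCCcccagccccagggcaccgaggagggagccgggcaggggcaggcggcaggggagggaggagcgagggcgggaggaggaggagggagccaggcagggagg
Duxf3, chr10:58233090-58233339, minus strand: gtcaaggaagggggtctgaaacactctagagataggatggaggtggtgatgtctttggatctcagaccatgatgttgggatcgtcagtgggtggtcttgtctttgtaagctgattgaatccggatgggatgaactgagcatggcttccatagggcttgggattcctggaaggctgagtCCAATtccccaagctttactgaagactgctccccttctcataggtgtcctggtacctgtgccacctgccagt
Klf17, chr4:117765667-117765916, minus strand: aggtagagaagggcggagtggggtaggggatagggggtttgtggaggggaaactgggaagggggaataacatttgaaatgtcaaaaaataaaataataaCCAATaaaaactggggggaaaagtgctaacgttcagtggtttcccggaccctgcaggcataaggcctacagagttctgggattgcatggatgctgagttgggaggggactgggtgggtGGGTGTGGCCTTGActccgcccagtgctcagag

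The Zfp352 window consists largely of a short unit repeated head to tail, and it holds TAATCC 9 times, from 227 to 56 bases before the start. Of 32851 RefSeq promoter windows of this length, 6.25% hold TAATCC at all and 1, that of Zfp352, holds it 9 times or more. Klf17 has a CCAAT box 151 to 147 bases before its start, and an NR5A2 match at 28 to 20 bases that overlaps a Krüppel-like match at 33 to 26 bases. Those 3 motifs occur in 33.8%, 1.39% and 15.9% of all windows. Duxf3 has a CCAAT box 72 to 68 bases before its start. Rarg has a Krüppel-like match at 106 to 99 bases and a single AGGTCA unit, found in 14.02% of windows, at 225 to 220 bases. RefSeq gives a second Rarg start, whose window (chr15:102246501-102246750) has Krüppel-like matches at 65 to 58 and 13 to 6 bases and no AGGTCA match. No DUX match (0.0304% of windows) or GABPA match (2.88%) lies in the 4 windows shown. Such matches describe letters in a window, not binding.

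Levels are given as FPKM, fragments scaled to transcript length and library size, which allows genes to be compared with each other. Total estimated counts ran from 7183632 to 11296522 per zygote and from 5727956 to 8916343 per late 2-cell embryo; blastocysts had FPKM only, so their depth in counts is unknown. Oocyte markers fitted the early labels, with 8 of 8 above a mean FPKM of 1 in zygotes and late 2-cell embryos, and their sum reached only 4.28 in any blastocyst. In both blastocyst groups all 6 trophectoderm and all 5 epiblast markers and 4 of 5 primitive endoderm markers had a mean of at least 1. Of 12 cumulus cell markers, 12 had a mean under 1 in zygotes and blastocysts and 11 in late 2-cell embryos, where Tnfaip6 was the exception. The summed FPKM of whole libraries did not overlap between the late 2-cell genotypes, at 712234 to 742246 in WT and 814376 to 976830 in R442Q embryos. In whole blastocysts, fewer cells of a type and less RNA per cell cannot be told apart.

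All 10 genes changed between the zygote and the late 2-cell stage in both genotypes: Dppa2, Dppa4, Nr5a2, Rarg, Gabpa, Klf5 and Zfp352 rose, and Duxf3, Nfya and Klf17 fell. Each was called by edgeR, that is, its Benjamini-Hochberg adjusted p over all genes was under 0.05. Of 16199 genes, 61.2% were called in WT embryos (36.2% higher and 25.0% lower at late 2-cell) and 65.1% in R442Q embryos (35.3% and 29.8%). The median change of the 10 was 3.60 log2 units in WT and 2.75 in R442Q embryos, against 0.34 and 0.22 over all genes tested. In WT embryos the zygote and late 2-cell ranges of CPM (counts scaled to library size) did not overlap for any of the 10, which held for 56.7% of all genes; among R442Q embryos it held for 9, all but Nfya, and for 44.9% of all genes. Stage and the table in which each stage was deposited cannot be told apart, and the changes are relative to the rest of each library.

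**Figure D1:**
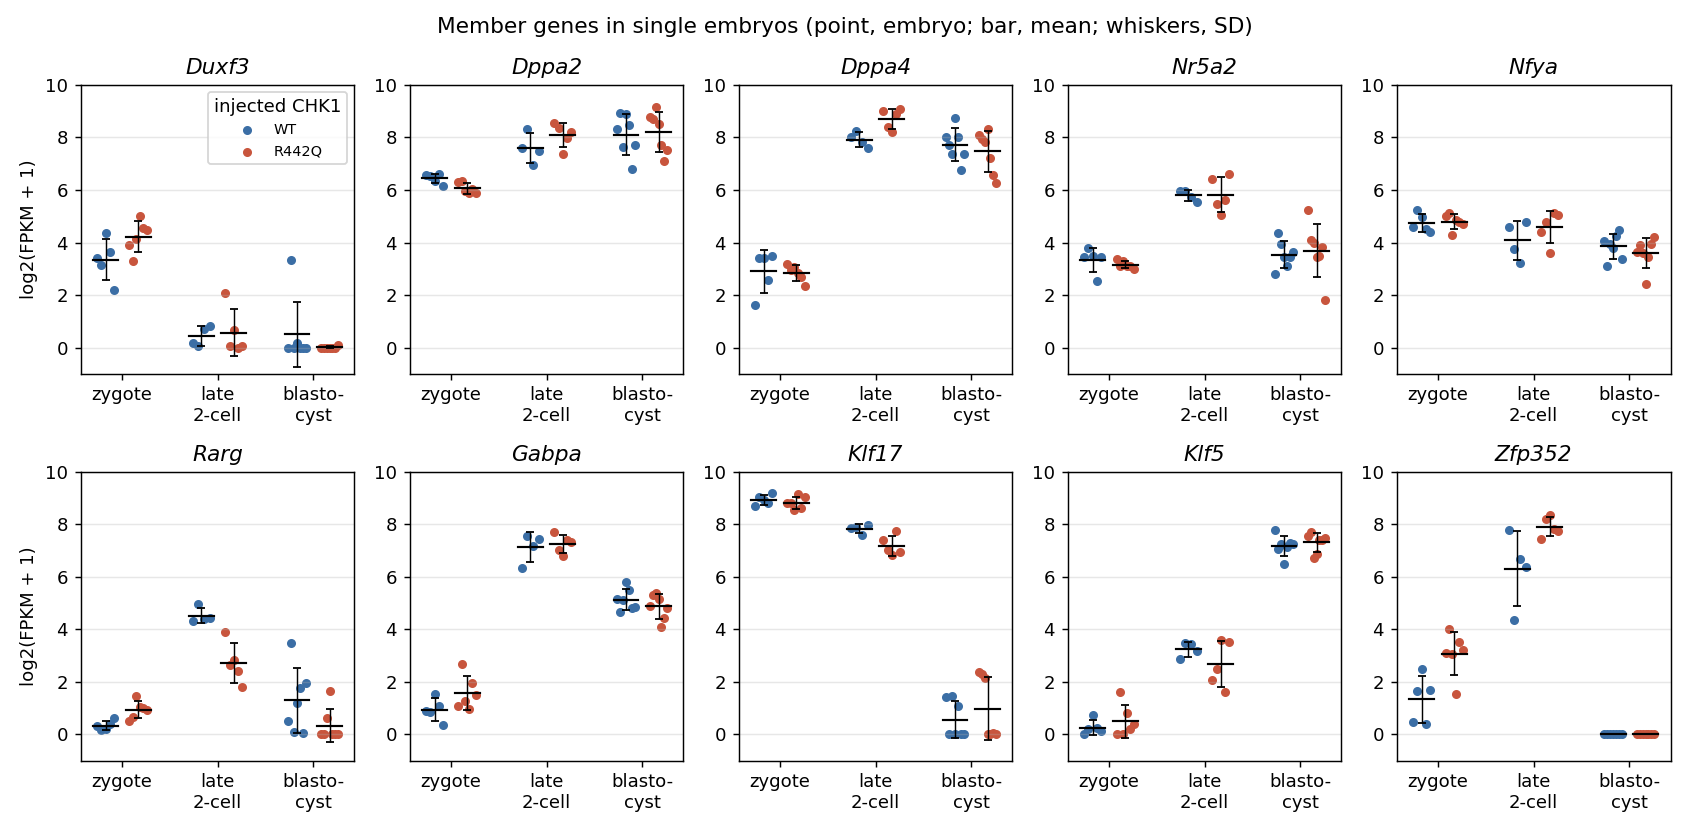
Each panel plots one gene in 34 single embryos, with the stage on the x axis and log2(FPKM + 1) on the y axis; points are embryos, blue for WT and red for R442Q CHK1, bars are means and whiskers SD. Duxf3 and Klf17 are highest in zygotes, Rarg, Gabpa, Nr5a2 and Zfp352 at the late 2-cell stage, and Klf5 in blastocysts, while Zfp352 is listed at 0 in all 14 blastocysts.

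Between genotypes in zygotes, 2 of the 9 members tested were called, Zfp352 and Rarg, both higher in R442Q, where 13.2% of 12420 genes were called and 6.3% were called higher. The low-count filter asks for about 10 reads in 5 zygotes; 6 members met it in the WT zygotes alone, and Rarg, Gabpa and Zfp352 only with R442Q zygotes counted, so these 3 were tested because of the group in which they are high. Oocyte markers summed to 6269 to 8831 FPKM in WT and 4371 to 6739 in R442Q zygotes, and late 2-cell markers to 106 to 210 and 82.8 to 238. The latter sums are mostly Tcstv1 and Tcstv3, whose mean FPKM was lower in R442Q zygotes (Tcstv1 at 84.7 against 128). The means of the other late 2-cell markers were higher there: Pramef25, Tdpoz3, Usp17lc, Zscan4c, Zscan4d (12.4 against 2.52) and Zscan4f. The part of either marker set in the differences of the members was not tested. At late 2-cell, edgeR called 0 of 9 members (4.18% of 13883 genes called), with 3 at an unadjusted p under 0.05, as were 21.0% of all genes; DESeq2 called 3 (12.1% of all genes) and limma on FPKM 1 (4.6%). Rarg was the single member whose genotypes did not overlap in CPM, with R442Q lower, as in 8.77% of genes. Oocyte markers there summed to 1366 to 3414 in WT and 1859 to 7147 in R442Q embryos, and late 2-cell markers to 129 to 1580 and 743 to 2935, and their part was not tested either. In blastocysts limma called 0 of 6 members, with 0 at an unadjusted p under 0.05 (7.4% of 11297 genes); 0.00885% of all genes were called.

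**Figure D2:**
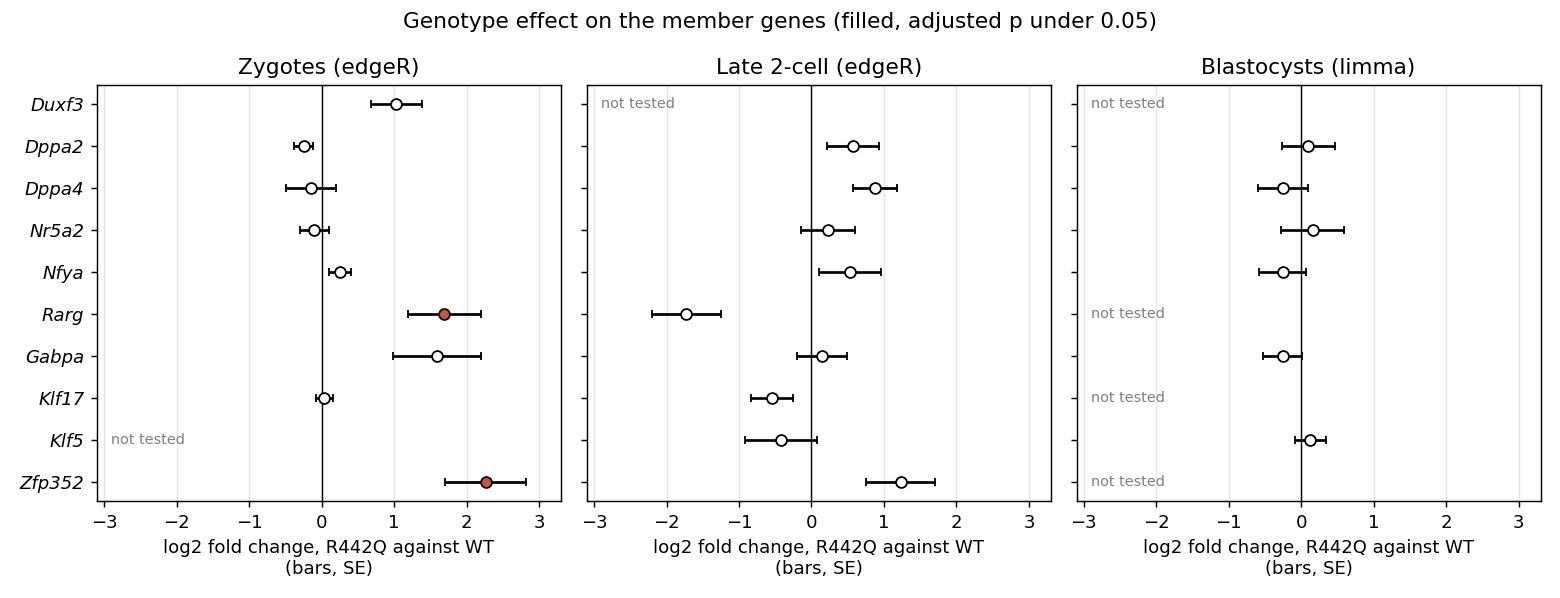
The 3 panels plot the log2 fold change of R442Q against WT embryos (x axis) with SE for each gene (y axis) in zygotes and late 2-cell embryos (edgeR) and blastocysts (limma on log2(FPKM + 1)); filled points passed an adjusted p of 0.05. Rarg lies at 1.69 in zygotes and -1.73 at late 2-cell, and Zfp352 at 2.26 and 1.23.

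Duxf3, the gene of the minor-wave activator DUX, lies on chromosome 10 (58229979 to 58232675, minus strand, GRCm38) and was measured almost entirely in zygotes. Its FPKM in the 5 WT zygotes was 9.54, 7.86, 19.7, 11.5 and 3.60, and in the 6 R442Q zygotes it ran from 8.70 through a median of 19.0 to 31.0. The ranges overlapped, with 5 of the 6 R442Q zygotes above 4 of the 5 WT zygotes. The difference of 1.03 ± 0.35 log2 units (SE) had an adjusted p of 0.0643 in edgeR. It was called without WT replicate 3 (edgeR adjusted p = 0.0150) or R442Q replicate 2 (0.0348), with no low-count filter (0.0027) and by DESeq2 (0.0176); over 17 other settings the adjusted p reached 0.686. By the late 2-cell stage the 4 WT embryos were at 0.12, 0.04, 0.62 and 0.75 and the 5 R442Q embryos at 3.23, 0.05, 0.57, 0 and 0.03. Duxf3 fell by 4.84 ± 1.09 log2 units in WT (edgeR adjusted p = 0.00055) and fell by 4.89 ± 0.95 in R442Q embryos (9.61e-05). Late 2-cell counts of Duxf3 ended at 30.2 reads in the highest embryo, and the gene did not pass the low-count filter for a genotype test there. It was listed at 0 in 11 of 14 blastocysts, and WT blastocyst replicate 2 stood apart at 9.07.

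Duxf3 belongs to a tandem array, and 47.0% of the 50-base stretches of its transcripts also occur in other annotated genes, chiefly AW822073 (32.5%) and Gm10807 (21.1%) on the same chromosome. Those were also the genes whose log2(FPKM + 1) followed Duxf3 most closely over the 34 embryos, with Pearson r of 0.99 for Gm10807 and 0.98 for AW822073, followed by Krt88 at 0.95. How reads were split among the copies could therefore move the Duxf3 values. These correlations describe embryos that share stages and deposited tables, over 12195 genes compared.

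Dppa2 and Dppa4, the paired chromatin factors upstream of Dux, are neighbours on chromosome 16, with 9670 bases between the end of Dppa4 and the start of Dppa2. Their transcripts were not matched in zygotes: Dppa2 had 86.4 ± 10.6 FPKM (SD, n = 5) in WT and 66.4 ± 9.67 (n = 6) in R442Q zygotes, and Dppa4 had 7.30 ± 3.61 and 6.30 ± 1.42. Dppa4 was thus present at a median of 0.104 of the Dppa2 level in WT zygotes and 0.0947 in R442Q zygotes. At the late 2-cell stage that ratio had a median of 1.21 in WT and 1.82 in R442Q embryos, and in blastocysts 0.811 and 0.625. No zygote had a ratio above 0.146 and no later embryo one below 0.399.

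The late 2-cell FPKM of Dppa4 was 258, 300, 229 and 192 in WT and 508, 334, 297, 474 and 539 in R442Q embryos. Of the R442Q embryos 4 lay above every WT embryo, and replicate 3 at 297 lay just under the highest WT embryo. R442Q replicate 3 had 16211 genes at FPKM 1 or more, against 11984 to 14210 in the other late 2-cell embryos. It also had the highest oocyte and cumulus marker sums of that stage, 7147 and 23.7 FPKM. The genotype difference was 0.88 ± 0.31 log2 units with an edgeR adjusted p of 0.117 (0.0350 without R442Q replicate 3, and 0.0327 in DESeq2), and it was 0.28 once a trend with GC content and length was taken out of each library, an alternative chosen after seeing the data. From zygote to late 2-cell, Dppa4 rose by 4.81 ± 0.37 log2 units in WT and 5.75 ± 0.35 in R442Q embryos (edgeR adjusted p = 1.87e-10 and 3.3e-12). The difference between those rises was 0.94 ± 0.45 (edgeR adjusted p = 0.195, and 0.0499 without WT zygote replicate 1), so a larger rise in R442Q embryos was not called with all embryos.

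Dppa2 rose less, by 1.26 ± 0.26 log2 units in WT and 1.98 ± 0.24 in R442Q embryos (edgeR adjusted p = 0.000232 and 1.5e-07). The difference between the rises was 0.72 ± 0.35 (edgeR adjusted p = 0.204, but 0.0389 without WT late 2-cell replicate 2 and 0.0280 without R442Q late 2-cell replicate 3). Its late 2-cell FPKM was 191, 322, 122 and 180 in WT and 377, 327, 163, 253 and 295 in R442Q embryos, with overlapping ranges. In zygotes Dppa2 was 0.25 ± 0.13 log2 units lower in R442Q embryos (edgeR adjusted p = 0.240), and 2 of the 6 lay within the WT range of 70.3 to 95.7 with the other 4 below it. By mean FPKM, Dppa4 was the highest of the 10 in WT late 2-cell embryos at 245 ± 45.6 (SD, n = 4) and Dppa2 in WT blastocysts at 308 ± 143 (n = 7).

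Within a stage, Dppa2 and Dppa4 could be compared embryo by embryo after each genotype's mean was taken away. Among the 14 blastocysts their deviations in log2(FPKM + 1) rose together, with Pearson r = 0.853 and Spearman rho = 0.785 (permutation p = 0.0002 and 0.0011, adjusted over 3 stages 0.0006 and 0.0033), and r was 0.775 without the 2 embryos farthest out in Dppa2. In the 9 late 2-cell embryos r was 0.612 (rho 0.633, exact permutation p = 0.0887 and 0.0760, adjusted 0.133 and 0.114) and 0.253 without the 2 farthest. The 11 zygotes gave r = -0.18 (rho -0.18, permutation p = 0.604 and 0.594, adjusted p equal to these) and -0.43 without the 2 farthest. Whether the stages differ in this was not tested. Processed pseudogenes share 29.1% of the 50-base stretches of Dppa2 and 31.3% of those of Dppa4, and blastocyst depth is unknown, so its part in the blastocyst relation was not tested. The 3 blastocysts lowest in Dppa4, at 76.9 to 109 FPKM, were also the 3 lowest in summed epiblast markers, at 87.0 to 112 FPKM against 187 to 735 in the other 11, and they had 8189 to 10962 genes at FPKM 1 or more against 10714 to 12191. Without these 3, a choice made after seeing the data, r was 0.695 (permutation p = 0.0165) and rho 0.445 (permutation p = 0.173).

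Nfya, the CCAAT-binding subunit of NF-Y, had the smallest estimated stage change of the 10 in both genotypes. Mean FPKM was 26.4 ± 7.12 (SD, n = 5) in WT and 27.2 ± 5.33 (n = 6) in R442Q zygotes, 17.7 ± 8.73 (n = 4) and 24.7 ± 9.25 (n = 5) at the late 2-cell stage, and 14.2 ± 4.81 and 11.9 ± 4.10 (n = 7 each) in blastocysts. Every neighbouring pair in the order of these 6 groups overlapped. From zygote to late 2-cell Nfya fell by 1.10 ± 0.31 log2 units in WT (edgeR adjusted p = 0.00371) and fell by 0.90 ± 0.27 in R442Q embryos (0.00629). With the length and GC trend removed the latter change was -0.25 and its call was lost (edgeR adjusted p = 0.461). The genotypes were not called different at any stage, with log2 differences of 0.25 ± 0.15 in zygotes, 0.53 ± 0.43 at late 2-cell and -0.26 ± 0.33 in blastocysts.

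The other NF-Y subunits moved in opposite directions. Nfyb rose by 2.07 ± 0.33 log2 units in WT and 3.29 ± 0.32 in R442Q embryos, whereas Nfyc fell by 0.78 ± 0.19 and 0.80 ± 0.18. By FPKM, Nfyc was the most abundant subunit in zygotes, at 192 ± 11.9 (SD, n = 5) in WT and 152 ± 26.4 (n = 6) in R442Q embryos, and Nfyb was at 7.10 ± 1.39 and 4.15 ± 0.920. At late 2-cell Nfyb had reached 35.1 ± 6.29 (n = 4) and 49.3 ± 24.0 (n = 5).

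Klf17, which encodes a Krüppel-like factor stored as maternal RNA, was the most abundant of the 10 in zygotes. Its FPKM was 414, 525, 479, 443 and 575 in WT zygotes and 371 to 564 with a median of 442.2 in R442Q zygotes, a difference of 0.04 ± 0.12 log2 units (edgeR adjusted p = 0.893). The late 2-cell values were 230, 237, 192 and 251 in WT and 168, 127, 112, 214 and 120 in R442Q embryos, so that 4 of 5 R442Q embryos lay under every WT embryo. That genotype difference, -0.55 ± 0.29 log2 units, had an adjusted p of 0.307 in edgeR. Klf17 fell between the stages by 1.13 ± 0.22 log2 units in WT and 1.80 ± 0.20 in R442Q embryos (edgeR adjusted p = 0.000108 and 4.59e-08). It was nearly gone in blastocysts, where the highest of 14 embryos had 4.18 FPKM and 7 were listed at 0.

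Klf5, the related factor known for its role in the blastocyst, ran the other way. It had at most 0.67 FPKM in a WT zygote and 2.07 in an R442Q zygote and did not pass the low-count filter there. Late 2-cell embryos had 6.21, 10.1, 9.91 and 8.01 in WT and 3.25, 4.63, 11.0, 2.05 and 10.5 in R442Q embryos, with overlapping ranges and a difference of -0.42 ± 0.50 log2 units (edgeR adjusted p = 0.686). The rise from the zygote was 5.35 ± 1.04 log2 units in WT and 3.45 ± 0.86 in R442Q embryos (edgeR adjusted p = 0.000126 and 0.0013). In blastocysts Klf5 stood at 149 ± 38.9 FPKM (SD, n = 7) in WT and 162 ± 37.9 (n = 7) in R442Q embryos, above every earlier embryo. Over all 34 embryos Klf17 and Klf5 were opposed, with r = -0.95, a figure that mainly describes the stages.

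Of 15 other Krüppel-like genes 12 were tested for the stage change: 7 rose and 2 fell in WT embryos, and 5 rose and 3 fell in R442Q embryos, where 61.2% and 65.1% of all genes were called in either direction. In WT embryos Klf9 rose by 7.97 ± 1.07, Klf2 by 4.21 ± 0.89 and Klf4 by 3.04 ± 0.45 log2 units, and Klf7 fell by 2.13 ± 0.36. Klf4 and Klf2 encode factors of pluripotent cells. Klf11 was the single paralog called by edgeR between genotypes in zygotes, of 9 tested, a share near the 13.2% of all genes, and was higher in R442Q zygotes by 0.61 ± 0.10 (edgeR adjusted p = 0.0011), at 58.5 ± 7.24 FPKM (SD, n = 6) against 42.2 ± 3.11 (n = 5). At late 2-cell edgeR called 0 of 12 paralogs, where 4.18% of all genes were called, and 1 had an unadjusted p under 0.05, as did 21.0% of all genes; DESeq2 called 1, Klf16 (12.1% of all genes).

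Nr5a2, an orphan nuclear receptor, peaked at the late 2-cell stage. Zygotes had 9.52 ± 2.90 FPKM (SD, n = 5) in WT and 7.97 ± 0.848 (n = 6) in R442Q embryos. At late 2-cell the WT embryos had 62.1, 60.6, 51.5 and 45.8 and the R442Q embryos 84.0, 42.7, 32.2, 48.1 and 96.7, so the R442Q embryos lay on both sides of the WT range. The rise was 2.38 ± 0.31 log2 units in WT and 2.62 ± 0.28 in R442Q embryos (edgeR adjusted p = 5.55e-07 and 2.39e-08). Genotype differences were -0.10 ± 0.20 in zygotes, 0.23 ± 0.37 at late 2-cell and 0.16 ± 0.43 in blastocysts, with adjusted p of 0.804 and 0.778 (edgeR) and 0.965 (limma). In blastocysts it was back to 11.3 ± 4.58 in WT and 14.7 ± 10.5 in R442Q embryos (n = 7 each).

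Rarg, the retinoic acid receptor gamma gene on chromosome 15 (102234938 to 102257517, minus strand), was the single member with a called difference between the genotypes in its change from zygote to late 2-cell. The FPKM of WT zygotes was 0.24, 0.13, 0.15, 0.31 and 0.52, and that of R442Q zygotes ran from 0.43 through a median of 0.935 to 1.77; 1 R442Q embryo lay inside the WT range. At late 2-cell the order was reversed: WT embryos had 19.0, 29.8, 19.8 and 20.3 and R442Q embryos 13.98, 5.18, 6.18, 4.37 and 2.47. There the genotypes did not overlap.

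In edgeR, Rarg was 1.69 ± 0.50 log2 units higher in R442Q than WT zygotes (adjusted p = 0.0344) and 1.73 ± 0.47 lower in R442Q late 2-cell embryos (adjusted p = 0.0562, not called). Only 1 of 5 WT zygotes but 5 of 6 R442Q zygotes reached the count minimum for Rarg, so the gene was tested through the group in which it is high. The zygote difference rests on 3 to 12 reads per WT and 8 to 26 per R442Q embryo; leaving out WT replicate 1, 2, 3 or 4 or R442Q replicate 4 or 5 ended the call, with edgeR adjusted p from 0.0541 to 0.0974. The late 2-cell difference was -0.71 with an edgeR adjusted p of 0.556 once the length and GC trend was removed, and Rarg transcripts are 58.8% GC. It passed the threshold in DESeq2 (adjusted p = 0.0066), in limma on FPKM (0.0397) and, in edgeR, without R442Q replicate 1 (0.0202), with no low-count filter (0.0113) and with the stages fitted together (0.0083).

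Rarg rose by 6.39 ± 0.55 log2 units in WT and by 2.87 ± 0.43 in R442Q embryos (edgeR adjusted p = 1.15e-09 and 3.68e-06). The difference between those rises, the interaction of genotype and stage, was -3.52 ± 0.65 log2 units with an adjusted p of 0.00153 in edgeR. It was the single call among the 10, where 10.1% of 16199 genes were called and 7.05% were called lower. Across 24 other settings without a replicate block it stayed between -3.96 and -2.48, with adjusted p up to 0.0181. In blastocysts Rarg was low again, at 2.88 FPKM or less in 13 of 14 embryos and at 10.16 in WT replicate 2, the embryo that was also high in Duxf3; it entered no blastocyst test.

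**Figure D3:**
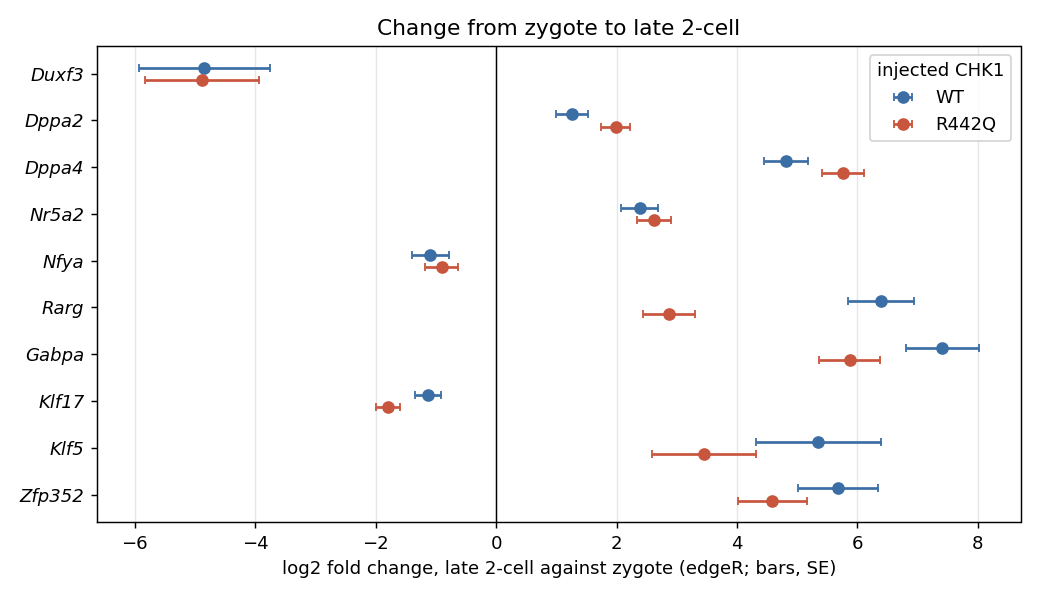
Points give the edgeR log2 fold change from zygote to late 2-cell (x axis) for each gene (y axis), blue in WT and red in R442Q embryos, with SE as bars. Rarg shows the widest separation between the genotypes relative to its bars, 6.39 against 2.87, while Duxf3, Nr5a2 and Nfya lie at nearly equal values.

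Among the retinoid receptor genes, Rara, the alpha receptor, was at 5.77 ± 0.859 FPKM in WT and 7.30 ± 1.44 in R442Q zygotes and at 2.77 ± 0.823 and 0.97 ± 0.771 at late 2-cell. It fell by 2.93 ± 0.56 log2 units in R442Q embryos (edgeR adjusted p = 7.88e-05), and its WT change was -1.09 ± 0.57 (0.0985). Rxrb, a gene of the retinoid X receptors that pair with RARG, was at 1.24 ± 0.874 FPKM in WT and 1.32 ± 0.916 in R442Q late 2-cell embryos, with a stage change of 3.46 ± 1.06 log2 units in WT (edgeR adjusted p = 0.0071) and 1.499 ± 0.88 in R442Q embryos (0.140). Of the partner genes of NF-Y, GABP and RARG, 7 were tested in each stage and 0 were called between genotypes by edgeR or, in blastocysts, limma, where 13.2%, 4.18% and 0.00885% of all genes were called in zygotes, late 2-cell embryos and blastocysts. At an unadjusted p under 0.05 there were 2, 1 and 0, against 27.1%, 21.0% and 7.4% of all genes. DESeq2 called 0 in both early stages, and limma on FPKM called 1 in zygotes, Nfyb (13.9% of all genes), and 0 at late 2-cell.

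Gabpa, the DNA-binding subunit of GABP, had the largest estimated rise of the 10 in both genotypes. Zygotes had 0.85, 0.81, 1.90, 1.12 and 0.28 FPKM in WT and 0.94 to 5.37, median 1.64, in R442Q embryos, overlapping ranges with a difference of 1.59 ± 0.60 log2 units (edgeR adjusted p = 0.0944, but 0.0469 without WT replicate 3, 0.0440 with no low-count filter and 0.0397 in DESeq2). Late 2-cell embryos had 78.9, 188, 143 and 174 in WT and 210, 129, 109, 167 and 158 in R442Q embryos, a difference of 0.14 ± 0.35 (edgeR adjusted p = 0.859). Gabpa rose by 7.41 ± 0.60 log2 units in WT and 5.87 ± 0.50 in R442Q embryos (edgeR adjusted p = 5.05e-10 and 7e-10). In blastocysts it stood at 35.3 ± 11.1 and 29.6 ± 9.22 FPKM (SD, n = 7 each), below every late 2-cell embryo and above every zygote. The gene overlaps Atp5j on the opposite strand, and 4.46% of the 50-base stretches of Gabpa transcripts also occur in Atp5j. Without stated use of strand, reads from that shared part cannot be told apart. Of its partner subunits, Gabpb2 also rose, by 3.91 ± 0.40 log2 units in WT and 2.69 ± 0.35 in R442Q embryos (edgeR on counts). Its mean FPKM went from 1.37 to 40.8 in WT and from 1.30 to 69.7 in R442Q embryos, so which genotype rose more depended on the measure. Gabpb1 rose by 0.70 ± 0.19 in R442Q embryos (edgeR adjusted p = 0.0026), and its WT change was 0.39 ± 0.21 (0.111). Of the 8 partner genes tested for the stage change, 3 rose and 1 fell in WT embryos and 3 rose and 2 fell in R442Q embryos, shares below the 61.2% and 65.1% of all genes called.

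Zfp352, a zinc finger gene on chromosome 4 (90218820 to 90225702, plus strand) and the one whose promoter carries the TAATCC repeat, was the other member called in zygotes. WT zygotes had 0.37, 2.12, 4.62, 0.32 and 2.22 FPKM and R442Q zygotes 1.91 to 15.2 with a median of 7.90. Of 6 R442Q zygotes 5 lay above every WT zygote, and replicate 4, at 1.91, lay inside the WT range. The count minimum was reached by 3 of 5 WT and 6 of 6 R442Q zygotes. The difference was 2.26 ± 0.56 log2 units (edgeR adjusted p = 0.0137) and was called in all 17 other settings without a replicate block, with adjusted p up to 0.0400.

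Late 2-cell embryos had 220, 19.7, 102 and 82.4 FPKM of Zfp352 in WT and 171, 292, 328, 223 and 215 in R442Q embryos. Here 3 R442Q embryos lay above all WT embryos and 1 WT embryo, replicate 1, lay among them; the difference of 1.23 ± 0.48 log2 units had an edgeR adjusted p of 0.154 (0.0459 in DESeq2). WT replicate 2, lowest in Zfp352, was also lowest in the summed late 2-cell markers, at 129 against 565 to 1580 in the other WT embryos. Zfp352 rose from the zygote by 5.68 ± 0.67 log2 units in WT and 4.58 ± 0.57 in R442Q embryos (edgeR adjusted p = 1.54e-07 and 2.61e-07). It was listed at 0 in all 14 blastocysts. Its closest genes over the 34 embryos were AF067061, Gm6882 and Gm11238 (r = 0.98, 0.98 and 0.97).

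Genes known as DUX targets were set beside Duxf3. The list was chosen with earlier results of these data known, so its counts beside all genes are descriptive only. Of the 23 genes 17 were tested in zygotes. Of these 10 were called higher and 0 called lower in R442Q embryos, where 6.3% of all genes were called higher and 6.92% lower. The filter bears on this count: 10 of the 17 passed it only with R442Q zygotes counted, 8 of them called higher, and of the 7 that passed in WT zygotes alone 2 were called higher. These 2, named because they passed in this way, were Zscan4d, higher by 2.43 ± 0.49 log2 units (edgeR adjusted p = 0.0040) with a mean of 12.4 FPKM against 2.52, and Usp17lc, higher by 2.29 ± 0.44 (0.0032) with 12.5 against 2.81. The other 5 of the 7 were not called. Among them were Tcstv1 and Tcstv3, with lower mean FPKM in R442Q zygotes, at 84.7 against 128 and 25.6 against 39.1. With no low-count filter 12 of 22 were called, all higher, against 3.0% of 28656 genes called higher, a set that also holds genes with very few reads. The next 4, with the smallest p of the list, passed only with R442Q zygotes counted, as 0 of 5 WT zygotes reached the minimum for Ubtfl1, 3 for Usp17la, 4 for Usp17ld and 2 for Zscan4f. Ubtfl1 was 4.801 ± 0.75 log2 units higher (edgeR adjusted p = 0.0008), at 3.003 ± 2.21 FPKM (SD, n = 6) against 0.102 ± 0.115 (n = 5). Usp17la was 2.75 ± 0.43 higher and Usp17ld 2.11 ± 0.35 higher (0.0009 and 0.0012), the latter at 6.003 ± 1.21 against 1.55 ± 0.886 FPKM. Zscan4f, a marker gene of the 2-cell state, was 4.65 ± 0.87 higher (0.0025), with R442Q zygotes from 1.40 to 44.2 FPKM and WT zygotes from 0 to 0.80. The count of 10 higher fell to 6 without R442Q zygote replicate 1, 2 or 5. All 8 late 2-cell markers are also on this list. Several of these genes are near-identical copies between which reads may be split, so they are not separate observations.

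At late 2-cell edgeR called 0 of the 23 DUX target genes at an adjusted p of 0.05, where 4.18% of all genes were called, and 6 had an unadjusted p below it, near the 21.0% of all genes. DESeq2 called 1, Zscan4a, higher in R442Q embryos by 1.61 ± 0.48 log2 units (DESeq2 adjusted p = 0.00999), and limma on FPKM called 0. With no low-count filter edgeR called 4, all higher, where 3.32% of 26742 genes were called. Between the stages 19 of 23 rose in WT embryos and 18 in R442Q embryos, and none was called as falling in either, where 36.2% and 35.3% of all genes were called higher and 25.0% and 29.8% lower. The genotype by stage interaction was called for 3 of 23, near the 10.1% of all genes. All 3 were negative, where 7.05% of all genes were called lower: Ubtfl1 at -5.53 ± 0.79, Usp17la at -2.46 ± 0.63 and Usp17ld at -3.17 ± 0.95. DESeq2 called it for 5 (4 negative), edgeR with no low-count filter for 6 (5 negative) and the fit with the replicate block for 1. Leaving out 1 embryo gave 2 to 5, with 1089 to 2311 genes called in all. The share of all genes in DESeq2 and the unfiltered fit is not given here, so those counts are no result about the list.

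The 16 regulators of Dux and the 2-cell programme were also listed with earlier results of these data known, so their counts are descriptive only. Of the 16, 15 were tested in zygotes. Of these 6 were lower and 1 higher in R442Q embryos, where 6.92% of all genes were called lower and 6.3% higher, and all 15 passed the filter in WT zygotes alone. Without WT zygote replicate 2, 4 were called in all. Among those lower were Ncl, the nucleolin gene, by 0.79 ± 0.15 log2 units, Pias4, a SUMO ligase gene, by 0.81 ± 0.17, and Chaf1a, a subunit of the histone chaperone CAF-1, by 0.58 ± 0.14 (edgeR adjusted p = 0.0024, 0.0056 and 0.0144). Dppa3, a maternal factor that protects DNA methylation, was higher by 0.44 ± 0.08 (0.0019). At late 2-cell 1 of 16 was called, Zfp57, a zinc finger gene of imprint upkeep, higher by 1.19 ± 0.31 (0.0464), where 4.18% of all genes were called. DESeq2 called 6 of the 16 (12.1% of all genes), limma on FPKM 0, and edgeR with no low-count filter 2, both lower; with any 1 WT late 2-cell embryo left out edgeR called 0. Of the other early factors listed, 2 of 15 tested were called in zygotes, a share at the 13.2% of all genes, and both were lower: the homeobox gene Obox2 by 0.94 ± 0.13 and Esrrb, an orphan receptor gene, by 0.82 ± 0.20.

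**Figure D4:**
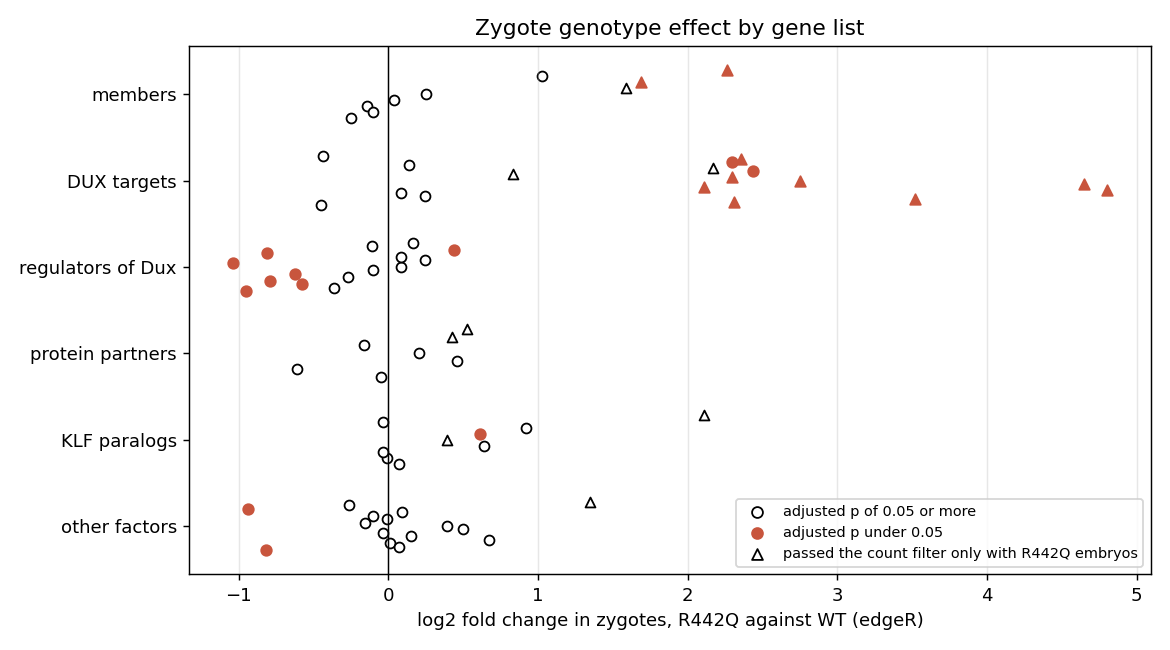
Each point is a gene, placed by its edgeR log2 fold change of R442Q against WT zygotes (x axis) and by list (y axis, spread vertically for legibility); filled symbols passed an adjusted p of 0.05 and triangles are genes that met the low-count filter only with R442Q zygotes counted. Of the 10 DUX target genes called higher 8 are triangles, as are both members called, and all 15 regulators of Dux are circles.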

How the data were processed

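Single-embryo cDNA was made by SMART-seq2 and turned into Nextera libraries with Tn5, per the labels' protocols. The authors deposited estimated counts per gene symbol for zygotes and late 2-cell embryos, and FPKM, normalised by the authors to length and library size, for all 3 stages; RSEM and the build mm10 are named in the submitters' processing notes. The aligner, annotation and use of strand are not given in the sources used here. GENCODE M21 (GRCm38) held 98.4% of the early symbols and 92.1% of the blastocyst symbols and gave positions.

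Estimated counts were rounded and tested in R 4.3.3 with edgeR 4.0.16 (quasi-likelihood, filterByExpr with a minimum count of 10, TMM scaling), each early stage alone. A model of all 4 early groups gave the stage changes and their difference. Blastocysts were tested with limma 3.58.1 (trended variance) on log2(FPKM + 1), keeping genes that reached FPKM 1 in 7 or more of 14 embryos; such differences understate changes of low genes. Benjamini-Hochberg adjustment ran over all genes tested, with a threshold of 0.05. Alternatives were DESeq2 1.42.0, limma on FPKM, other scaling, filters and pseudocounts, a joint fit of the early stages, a replicate block, each embryo left out, and, added later, removal of each library's trend on length and GC content. The fits were tested on simulated data.

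Groups and replicate numbers came from the titles. The 10 members and all lists were chosen with earlier results of these data known. From a list, up to 4 called genes with the smallest p were named per comparison; the 3 genes of highest Pearson r with each member were named among genes with a group mean FPKM of at least 5. 1 gene of the list of DUX targets is not reported here and was taken out of the list and its counts.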

Additional observations from a re-analysis of the deposited data

Results flagged for a closer look

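Of 58 groups of gene values tested for an embryo far from the rest of its group, 6 were marked, where chance marks about 1 in 20 of normally spread groups. That rate does not hold for groups listed mostly at 0, such as Duxf3 in blastocysts, where a lone value above 0 is marked however small. WT blastocyst replicate 2 had 9.07 FPKM of Duxf3 against at most 0.12 in the other 6 WT blastocysts. The same embryo had the highest Rarg of the blastocysts, at 10.16, and the highest trophectoderm marker sum of its group, 24287. Its 8 late 2-cell markers summed to 59.0 FPKM, of which Pramef25 made up 53.84, while Zscan4c and Zscan4d were listed at 0 in all WT blastocysts. R442Q blastocyst replicate 7 had 0.06 FPKM of Duxf3, where the other 6 were listed at 0. R442Q blastocyst replicate 4 was low in Nfya, at 4.42 FPKM against 9.98 to 17.4, and high in Rarg, at 2.12 against 0 to 0.53. WT zygote replicate 4 had 4.84 FPKM of Nr5a2 against 9.84 to 12.9 in the other WT zygotes. WT late 2-cell replicate 2 had 29.8 FPKM of Rarg against 19.0 to 20.3.

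The genotype effect on Rarg differed between the stages: the late 2-cell effect minus the zygote effect was -3.52 log2 units, with an edgeR adjusted p of 0.00153 for the difference itself. The zygote effect was 1.69 and the late 2-cell effect -1.73 in fits of each stage alone.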

How the results depend on the processing

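The 10 stage changes kept their direction and call in every setting without a replicate block, except Nfya in R442Q embryos (-0.25 with the length and GC trend removed). Members called in zygotes, 2 in the main test, were 4 in DESeq2, 1 in limma on FPKM and 1 with the stages fitted together, and 1 to 3 with an embryo left out. At late 2-cell, 0 became 1 with no low-count filter, 3 in DESeq2, 1 in limma on FPKM, 1 with the stages fitted together and 0 to 1 with an embryo left out; for the interaction, 1 became 1 to 2. Rarg in zygotes lost its call with no low-count filter (edgeR adjusted p = 0.142) and with the stages fitted together (0.0660), and the limma filter removed it. All genes called were 1643 in zygotes (270 with the stages fitted together). At late 2-cell they were 580, against 889 with no low-count filter, 1683 in DESeq2, 187 with the length and GC trend removed, 2507 with the stages fitted together and 142 to 891 with an embryo left out. In blastocysts they were 1, against 0 with no low-value filter and 0 to 30 with an embryo left out, and for the interaction 1639, against 1031 with the trend removed and 1089 to 2311 with an embryo left out. The cause of these shifts was not tested. Directions of small differences turned: Klf17 in zygotes was -0.10 in limma on FPKM and -0.033 to 0.11 with an embryo left out, and Dppa4 there -0.38 to 0.020. Gabpa at late 2-cell ran from -0.087 to 0.31, and in blastocysts Dppa2 from -0.12 to 0.28 and Nr5a2 from -0.10 to 0.47. The Duxf3 interaction of -0.04 was 0.13 with RLE scaling, 0.0075 with no low-count filter, 0.18 in DESeq2, 0.52 with the trend removed and -2.53 to 0.69 with an embryo left out. RLE in place of TMM scaling moved the median of all genes by 0.155 for the interaction and by 0.123 for the R442Q stage change. Replicate numbers of the titles showed no pairing of embryos. Deviations of WT and R442Q embryos with the same title number correlated at -0.17 to 0.21, and 4 of 16 WT embryos matched their own number best. The submitters' descriptions number some zygotes and late 2-cell embryos differently. A pairing by those numbers was not tested, and they were not used for the block. With the numbers as a replicate block, 1 member was called in zygotes (Zfp352). For the WT stage change that fit called 6, and Duxf3 (edgeR adjusted p = 0.272), Nfya (0.271), Klf17 (0.0503) and Klf5 (0.107) were not called. For the R442Q stage change it called 7, and Duxf3 (edgeR adjusted p = 0.0602), Nfya (0.212) and Klf5 (0.199) were not called. All genes called were 58 at late 2-cell, 0 in blastocysts, 3794 and 4765 for the WT and R442Q stage changes and 1044 for the interaction. Embryos with the same number at different stages are different embryos, so a block by number does not pair the stages. The stage changes of the block fit therefore do not decide how firm the stage calls of the main test are. In the block fit Dppa4 was 0.092 and Klf17 -0.0046 in zygotes, Nr5a2 -0.13 at late 2-cell and -0.18 in the interaction. Low counts limit Rarg, Gabpa, Klf5 and Zfp352 in zygotes and Duxf3 later.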

Other observations

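Members differed in which genes followed them most closely over the 34 embryos, by Pearson r of log2(FPKM + 1) among 12195 genes. The values describe courses shared across stages and deposited tables. Dppa2 was closest to the proteasome subunit gene Psma6 (r = 0.92), Sat1 (0.91) and Cenpm (0.91). Dppa4 was closest to Bzw1, Ctsl and Impdh2 (0.98, 0.97 and 0.97), and among the other members to Gabpa (0.93). Gabpa was closest to Gcsh, Mak16 and Ppp1r2 (0.98, 0.97 and 0.97). Klf17 was closest to Tgfb2, D7Ertd443e and Khdc1b (0.98 each), and Klf5 to Cndp2, Lrpap1 and Etfb (0.98 each). Nr5a2 was closest to Dnajc12, Polr3k and Hexim1 (0.91 each), and Rarg to Gm5905, Rilpl2 and Ciita (0.89, 0.89 and 0.87). Nfya had the loosest companions, Magoh, Ube2g1 and Abhd17b, at 0.78, 0.76 and 0.76.

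Members were also unequal in how far single embryos of one group lay apart. In R442Q late 2-cell embryos Rarg ran from 2.47 to 13.98 FPKM and Klf5 from 2.05 to 11.0, while Dppa4 ran from 297 to 539. Among WT late 2-cell embryos Zfp352 ran from 19.7 to 220 FPKM and Klf17 from 192 to 251.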
